A study of Mus musculus with 6 samples.

Results

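The Phlda family (pleckstrin homology-like domain, family A) has 3 members in the mouse, Phlda1, Phlda2 and Phlda3, and all 3 were measured among the 19938 genes of this liver dataset, each by 1 probe set. The members were taken by gene symbol, and the family was chosen because Phlda1 was among the genes with large differences after interleukin-6 (IL-6). The values of Phlda1 are therefore a description and carry no test, whereas Phlda2 and Phlda3 came in by name and were tested. The animals were male C57BL6 mice, an inbred strain, aged 10 weeks and fasted for 16 h. Of the 6 arrays of whole liver RNA, 3 came from mice injected intraperitoneally with saline and 3 from mice that received IL-6 at 100 ng per mouse by the same route, and tissue was taken 1 h later in both groups. The labels give no genetic change for either group, and every animal had been fasted, so fed liver was not part of the comparison.

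The Phlda2 and Phlda3 proteins are small and consist largely of a pleckstrin homology domain, a fold that binds phosphoinositide lipids of the membrane. Phlda1, also called TDAG51 for T-cell death-associated gene 51, is an early-response gene in many cell types, switched on by growth factors and by cell stress, and has been linked to both cell death and survival. Phlda2, also called Ipl or Tssc3, is an imprinted gene expressed from the maternal copy and is best known for restraining growth of the placenta. Phlda3, also called Tih1, is a target of the transcription factor p53, and its protein competes with the kinase AKT for membrane lipids and so dampens AKT signalling. IL-6 acts on hepatocytes mainly through gp130, JAK kinases and STAT3, with a parallel branch through the kinase ERK.

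Expression values are log2 values per probe set, so a difference of 1 is a 2-fold change. Array medians over all probe sets ran from 5.42 to 5.48. The treatment check Socs3, the feedback inhibitor of IL-6 signalling, rose by 3.15 ± 0.11 (standard error, n = 3 arrays per group, limma adjusted p = 1.45e-06). The tissue label was checked on hepatocyte markers, and all 8 measured markers, Alb and Hnf4a among them, lay above the 98th percentile of level. On the second principal component, which held 23.1% of the variance, a pair of arrays had low scores, -11.6 for saline replicate 2 and -13.15 for IL-6 replicate 3, against 1.83 to 9.65 in the remaining 4, so member values are also given without this pair. The labels name no batch. In whole tissue, a change in the number of cells of a type and a change in RNA per cell cannot be told apart.

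Phlda1 had the largest difference of the 3 members, and every IL-6 array stood above every saline array. Phlda1 (probe set 10366346) read 7.44, 7.66 and 7.14 in saline replicates 1, 2 and 3. It read 9.05, 8.83 and 9.31 in IL-6 replicates 1, 2 and 3. The groups did not overlap, and the lowest IL-6 array stood 1.16 above the highest saline array, a distance larger than the range within saline (0.53) or within IL-6 (0.48). The means were 7.41 ± 0.26 and 9.06 ± 0.24 (SD, n = 3), a log2 difference of 1.65 ± 0.15 (standard error), or 3.14-fold. Phlda1 lay at the 88.3rd percentile of level over all arrays, well clear of the dim range of the array, and only 10 of the 19938 genes had a larger positive difference. For reference, 6.15% of all genes had IL-6 values all above the saline values and 0.386% rose in limma at an adjusted p under 0.05. Phlda1 was chosen from this same contrast, so neither share is support for it.

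**Figure D1:**
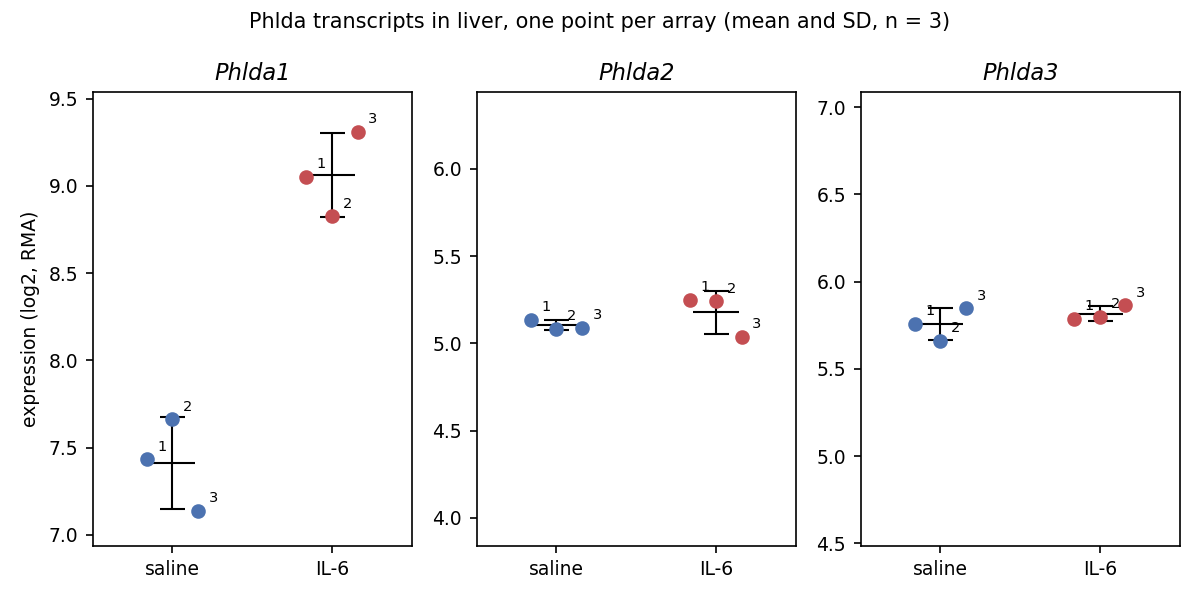
Log2 expression of Phlda1, Phlda2 and Phlda3 in the saline (blue) and IL-6 (red) arrays, with each replicate number beside its point and the mean and SD of 3 arrays in black. Each panel spans the same number of log2 units. The IL-6 points of Phlda1 (8.83 to 9.31) lie above all its saline points (7.14 to 7.66), while the points of Phlda2 and of Phlda3 overlap between groups.

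The spread of Phlda1 within each group was wide compared with that of its relatives. The highest saline array was replicate 2 and the highest IL-6 array was replicate 3, which are the same arrays that the second principal component set apart. Without both of them the Phlda1 difference was 1.65 ± 0.13 (standard error, n = 2 per group), a value that differed from that of all 6 arrays by less than its standard error. Leaving out single arrays moved it between 1.51 (without saline replicate 3, the lowest saline array) and 1.78 (without saline replicate 2).

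Phlda2, the imprinted member, showed no difference that passed the test. Phlda2 (probe set 10569437) read 5.14, 5.08 and 5.09 in saline replicates 1, 2 and 3. After IL-6 it read 5.25, 5.24 and 5.04 in replicates 1, 2 and 3. IL-6 replicates 1 and 2 lay above all saline arrays and IL-6 replicate 3 lay below all of them, so the groups overlapped. The means were 5.10 ± 0.03 and 5.18 ± 0.12 (SD, n = 3), which differ by 0.074 ± 0.082 on the log2 scale (standard error, adjusted p = 0.947 in limma, exact two-sided permutation p = 0.4). The 95% interval of the difference ran from -0.11 to 0.26, that is from 0.926-fold to 1.20-fold. A change of the size seen in Phlda1 lies outside it. IL-6 replicate 3 decided much of this value, since the difference was 0.14 without it (limma adjusted p = 0.749). Without saline replicate 2 and IL-6 replicate 3 together the difference was 0.13 ± 0.09 (standard error, limma adjusted p = 0.874). The level of Phlda2 was at the 36.3rd percentile of all genes, in the lower part of the array's range, where background makes up more of the signal.

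Phlda3, the p53 target, likewise did not pass. Phlda3 (probe set 10350146) read 5.76, 5.66 and 5.85 in saline replicates 1, 2 and 3. It read 5.79, 5.80 and 5.86 in IL-6 replicates 1, 2 and 3. Saline replicate 3 lay above IL-6 replicates 1 and 2, so the groups overlapped. The means were 5.76 ± 0.09 and 5.82 ± 0.04 (SD, n = 3), which differ by 0.060 ± 0.077 on the log2 scale (standard error, adjusted p = 0.955 in limma, exact two-sided permutation p = 0.4). The 95% interval ran from -0.11 to 0.23, or from 0.924-fold to 1.18-fold, and does not reach the Phlda1 value either. It was positive on leaving out any single array, at the lowest 0.013 without saline replicate 2, and -0.010 ± 0.088 without that array and IL-6 replicate 3 together (limma adjusted p = 0.997). With 3 arrays in each group, 0.1 is the smallest p that the permutation test allows.

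Set against all genes, Phlda2 and Phlda3 sat in the middle of the distribution. The median absolute log2 difference over all genes was 0.07, and 53.5% of genes had a smaller absolute difference than Phlda2 and 45.5% a smaller one than Phlda3. Of all genes, 0.421% passed limma in either direction and 6.62% had an unadjusted limma p under 0.05. Neither Phlda2 nor Phlda3 was among them.

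**Figure D2:**
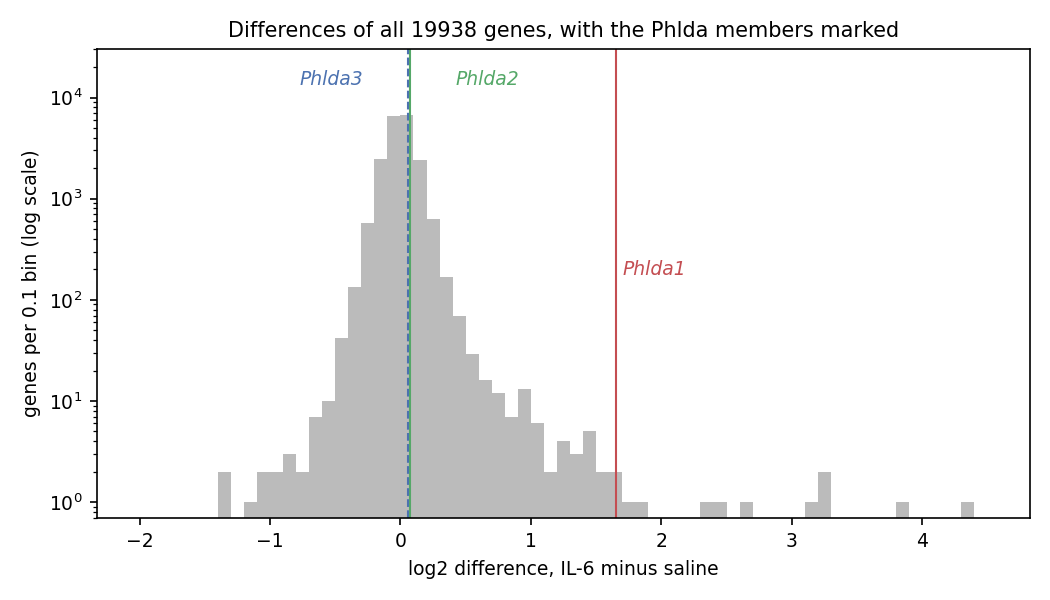
Histogram of the log2 difference, IL-6 minus saline, of all 19938 genes in bins of 0.1, with the number of genes on a log axis and the 3 members as vertical lines. Phlda2 (0.074) and Phlda3 (0.060) fall in the central peak and Phlda1 (1.65) in the sparse right tail, with 10 genes beyond it.

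The 5 genes whose profile over the 6 arrays lay nearest to that of Phlda1 were Serpina10, Mx2, Saa4, Pim1 and Zfp36. Nearness was the root mean square difference between log2 values, each taken relative to the gene's own saline mean, and ran from 0.11 for Serpina10 and 0.13 for Mx2 to 0.19 for Saa4, 0.23 for Pim1 and 0.25 for Zfp36. Serpina10 encodes the protein Z-dependent protease inhibitor of coagulation, Mx2 an interferon-inducible GTPase, Saa4 a serum amyloid A protein of plasma lipoproteins, Pim1 a serine/threonine kinase and Zfp36 a protein that promotes decay of cytokine mRNAs. Their log2 differences were 1.60, 1.61, 1.40, 1.52 and 1.43, all slightly smaller than that of Phlda1. Serpina10 read 8.33, 8.37 and 8.13 in saline replicates 1, 2 and 3 and 9.87, 9.73 and 10.02 in IL-6 replicates 1, 2 and 3. The highest and lowest array of each group were thus the same for Serpina10 as for Phlda1. In Pim1 the within-group pattern was different in saline, where replicate 3 was the highest array (7.75) and replicate 1 the lowest (7.62). These genes were picked for likeness in these arrays, which a shared difference between the groups largely fixes, so their likeness is a description.

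**Figure D3:**
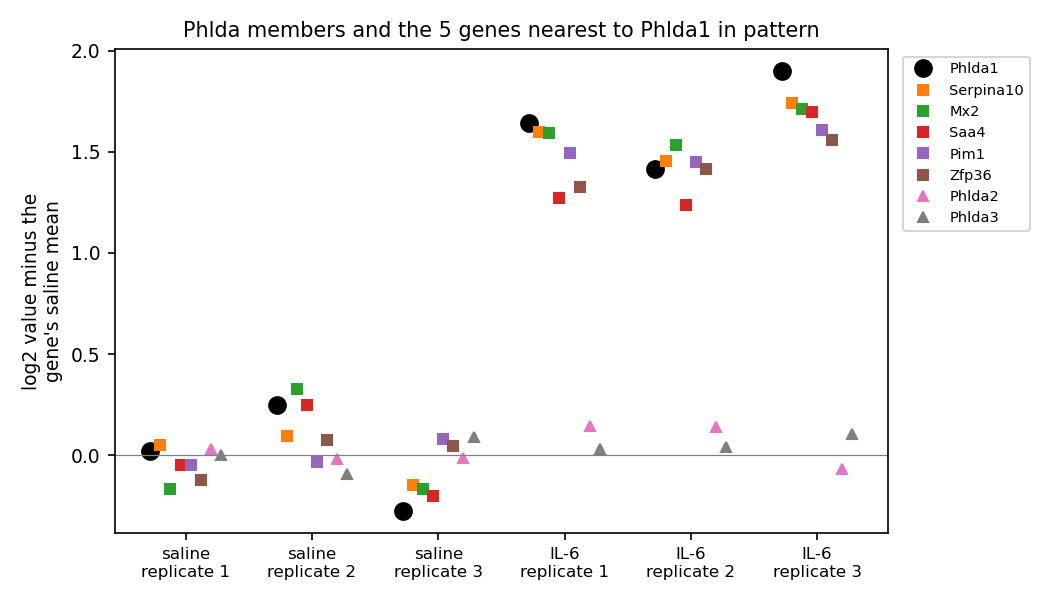
Log2 value of each gene minus its own saline mean, by array, for Phlda1 (black circles), the 5 genes nearest to it (squares), and Phlda2 and Phlda3 (triangles). Phlda1 and its nearest genes lie between 1.24 and 1.90 in the IL-6 arrays, whereas Phlda2 and Phlda3 stay within 0.15 of their saline means in all 6 arrays.

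The genes beside Phlda1 on the chromosome did not pass the test. In the gene order of assembly GRCm38.p6, the 3 protein-coding genes on each side of Phlda1 are Osbpl8, Bbs10 and Nap1l1, and Krr1, Glipr1 and Glipr1l1. Their log2 differences ran from -0.29 to 0.05, beside 1.65 in Phlda1. Nap1l1, a histone chaperone gene and the nearest on one side, had a difference of 0.05 ± 0.11 (standard error, limma adjusted p = 0.976), and Krr1, a ribosome assembly factor gene and the nearest on the other, had 0.03 ± 0.10 (limma adjusted p = 0.983). Bbs10, a chaperonin-like gene of the cilium, had the smallest adjusted p of the 6, with -0.29 ± 0.09 (limma adjusted p = 0.506). Phlda3 lies between Csrp1 and Tnni1, whose differences were -0.005 and -0.08. None of its 6 flanking genes passed, beside 0.421% of all genes.

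Phlda2 lies in a cluster of imprinted genes, between Slc22a18 and Nap1l4, and no other gene of the cluster passed either. Of 16 measured genes of this neighbourhood 0 passed limma and 0 had an unadjusted p under 0.05, beside 0.421% and 6.62% of all genes. Their median log2 difference was 0.006, beside 0.003 over all genes. Their differences ran from -0.11 in Tnfrsf23, a decoy receptor gene, to 0.13 in Trpm5, a cation channel gene. Cd81, a tetraspanin gene at the 98.1st percentile of level, had 0.11 ± 0.08 (limma adjusted p = 0.895), and the fetal growth factor gene Igf2 had -0.11 ± 0.08 (limma adjusted p = 0.908). Cdkn1c, a cell cycle inhibitor gene imprinted in the same direction as Phlda2 and 2 places from it in the gene order, had 0.02 ± 0.08 (limma adjusted p = 0.984).

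Phlda1 has been used, with Sprouty, Dusp and Etv genes, as a readout of the ERK pathway, and the other genes of that readout did not pass. Of 9 measured genes 0 passed limma, beside 0.421% of all genes, a share at which no call among 9 genes is unremarkable. An unadjusted p under 0.05 was found in 1, or 11.1%, beside 6.62% of all genes. Dusp6 and Spry4 had IL-6 values all above the saline values, as did 6.15% of all genes. Dusp4, named after its values were seen, had them all below. The median log2 difference of the 9 was 0.07 and the range ran from -0.11 to 0.28. Dusp6, the phosphatase that switches ERK off, had the largest difference at 0.28 ± 0.14 (standard error, limma adjusted p = 0.807). Without IL-6 replicate 3 it was 0.099, and Spry2, at 0.29, was then the largest of Dusp6, Spry2, Spry4 and Epha4 (limma adjusted p = 0.524). Spry2 and Spry4, feedback inhibitors of receptor tyrosine kinase signalling, had 0.21 ± 0.09 and 0.18 ± 0.08 (limma adjusted p = 0.750 and 0.792), and Epha4, an ephrin receptor gene, had 0.14 ± 0.09 (limma adjusted p = 0.874). Relative to the saline mean, the 9 genes averaged 0.05 to 0.07 in the IL-6 arrays and -0.05 to 0.03 in the saline arrays, while Phlda1 stood at 1.41 to 1.90 in the IL-6 arrays.

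Phlda3 is a p53 target, and among 25 other measured p53 target genes 4 rose and 21 did not pass limma. That is 16% called, beside 0.421% of all genes, and 7 had an unadjusted p under 0.05, beside 6.62% of all genes. The median log2 difference of the list was 0.02, beside 0.060 in Phlda3. Gadd45a, a stress sensor that slows the cell cycle, read 6.37, 6.37 and 6.17 in saline replicates 1, 2 and 3 and 8.91, 8.85 and 9.07 in IL-6 replicates 1, 2 and 3, with no overlap, a rise of 2.64 ± 0.09 (limma adjusted p = 1.45e-06). Plk3, a stress-responsive polo-like kinase gene, rose by 1.24 ± 0.19 (limma adjusted p = 0.0276). Btg2, an antiproliferative gene, rose by 1.11 ± 0.15 (limma adjusted p = 0.0122), and the death receptor gene Fas rose by 0.55 ± 0.09 (limma adjusted p = 0.0323). In the other 3 genes with a small unadjusted p the values were lower, without passing the test. Ddit4, an inhibitor of mTORC1, had -0.70 ± 0.21, the polo-like kinase gene Plk2 had -0.52 ± 0.14 and the stress gene Sesn2 had -0.37 ± 0.09 (limma adjusted p = 0.465, 0.383 and 0.218), all named after their values were seen. The part of p53 in the 4 rises was not tested. Mdm2, the p53 ubiquitin ligase gene, had 0.004 (limma adjusted p = 0.994) and Ccng1, a cyclin gene, had 0.03 (limma adjusted p = 0.974), both named after their values were seen. The list was drawn up with earlier results of these arrays known, so its count is not independent evidence. Cdkn1a, the cell cycle inhibitor gene p21 and a classical p53 target, is not in the count because its probe set carries another gene symbol as well.

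Of these 4, the Gadd45a call was kept under each of 15 other settings. The call of Btg2 was lost without IL-6 replicate 1 or 3 and without saline replicate 2 and IL-6 replicate 3 together (limma adjusted p from 0.00263 to 0.148 over the settings), and that of Plk3 on leaving out saline replicate 1, saline replicate 3, IL-6 replicate 2, IL-6 replicate 3 or the pair (0.0185 to 0.218). Fas lost it without any single array other than IL-6 replicate 1, without the pair, and with the replicate number as a block (0.00840 to 0.317). All of Btg2, Plk3 and Fas also lost it when every probe set was tested.

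**Figure D4:**
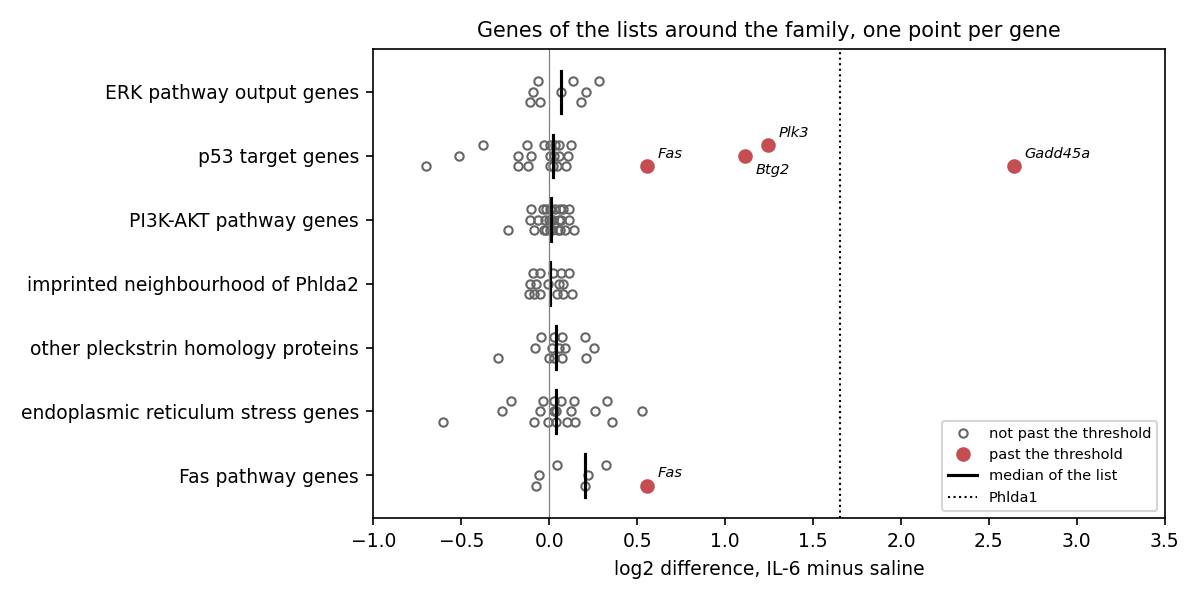
Log2 difference, IL-6 minus saline, of each measured gene (points) in the 7 lists around the family, with the median of each list as a black bar and Phlda1 as a dotted line. Filled red points are genes past the limma threshold, which are Gadd45a, Plk3, Btg2 and Fas, with Fas in both lists that hold it. All other genes are open points between -0.70 and 0.53.

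No transcript of the PI3K-AKT pathway, on which Phlda3 acts, passed the test. Of 28 measured PI3K-AKT genes 0 passed limma, beside 0.421% of all genes. In 1 of them, or 3.57%, the unadjusted p was under 0.05, beside 6.62% of all genes. The median log2 difference of the 28 was 0.01 and the range ran from -0.24 to 0.14. Akt2, the main AKT gene of insulin action in liver, had 0.11 ± 0.07 (limma adjusted p = 0.874), and Pdpk1, the kinase that activates AKT, had -0.24 ± 0.10 (limma adjusted p = 0.686). Rptor, a subunit of mTORC1, had 0.14 ± 0.08 (limma adjusted p = 0.847), and Pik3r2, a regulatory subunit of PI3K, had -0.10 ± 0.07 (limma adjusted p = 0.893). Among 14 other pleckstrin homology protein genes 0 passed limma and 1, or 7.14%, had an unadjusted p under 0.05. The similarly named Phldb1, Phldb2 and Phldb3, which encode larger proteins, had 0.02, 0.26 and -0.003, of which Phldb2 had the smallest adjusted p at 0.620 in limma. Plekhf1, an endosomal protein gene, had -0.29 ± 0.13, Plek, which encodes platelet pleckstrin, had 0.20 ± 0.11, and Plekho2 had 0.21 ± 0.11 (limma adjusted p = 0.768, 0.832 and 0.845).

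Phlda1 is also known as a gene of endoplasmic reticulum stress and, in T cells, of Fas induction. Of 20 measured endoplasmic reticulum stress and heat shock genes 0 passed limma, and 5 had an unadjusted p under 0.05, or 25% beside 6.62% of all genes. The differences of these 5 went in both directions. Xbp1, a transcription factor gene of the unfolded protein response, had 0.53 ± 0.10 (limma adjusted p = 0.0922, and 0.0246 with a variance trend and robust fitting), Chac1, which encodes a glutathione-degrading enzyme, had 0.36 ± 0.09 (0.326 in limma), and Ddit3, which encodes CHOP, had 0.33 ± 0.10 (limma adjusted p = 0.504). Lower values were found in Trib3, a pseudokinase gene that CHOP induces, at -0.27 ± 0.08, and in Herpud1 at -0.22 ± 0.09 (limma adjusted p = 0.403 and 0.696). The chaperone gene Hspa5 had 0.03 (limma adjusted p = 0.987). Herpud1 and Hspa5 are named after their values were seen. In the Fas pathway list 1 of 7 measured genes passed, which was Fas itself. Fas read 7.09, 7.14 and 7.04 in saline replicates 1, 2 and 3 and 7.49, 7.70 and 7.74 in IL-6 replicates 1, 2 and 3, without overlap. The initiator caspase gene Casp8 had 0.32 ± 0.09, the death agonist Bid 0.20 ± 0.10 and the caspase-8 inhibitor Cflar 0.22 ± 0.15 (limma adjusted p = 0.362, 0.795 and 0.900). The ligand gene Fasl had -0.06, and with a saline mean of 3.63 it was below the 25th percentile of level (4.59). Over all 7 lists, 4 of 118 distinct measured genes passed, or 3.39%, beside 0.421% of all genes. All 4 are in the p53 list. The lists were drawn up with earlier results of these arrays known, so this share is not independent evidence.

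Markers of liver cell types that could carry Phlda transcripts were looked at as well. Of 69 measured markers of 9 cell types 1 passed limma, beside 0.421% of all genes. At that share most markers would not pass in any case, so the count says little about the cell types. The 1 that passed was the neutrophil gene S100a8, whose log2 difference was 0.65 and which was also below the 25th percentile of level. Of the other neutrophil markers S100a9, the partner of S100a8, had -0.01 and the surface marker gene Ly6g -0.27 (limma adjusted p = 0.990 and 0.655). The 10 Kupffer cell markers had a median log2 difference of 0.09, and their mean level ran from 6.30 to 6.48 in saline and from 6.40 to 6.68 in IL-6 arrays. Relative to the saline mean they averaged 0.02, 0.28 and 0.004 in IL-6 replicates 1, 2 and 3. In saline replicates 1, 2 and 3 they averaged 0.08, 0.02 and -0.10, so saline replicate 1 stood above IL-6 replicates 1 and 3. Of these 10 markers 9 had a positive difference, a count for which no share over all genes was taken. An unadjusted limma p under 0.05 was found in 2 of them, or 20%, beside 6.62% of all genes. The 10 endothelial markers ran from 7.42 to 7.54 in saline and from 7.34 to 7.57 in IL-6 arrays, and the 10 stellate cell markers from 6.76 to 6.84 and from 6.82 to 6.87. The 9 neutrophil markers, 6 of them below that percentile, ran from 4.10 to 4.21 and from 4.06 to 4.32, with a median difference of 0.05. Median log2 differences were 0.03 for 8 hepatocyte, 0.08 for 5 cholangiocyte, -0.06 for 9 T and NK cell, -0.007 for 5 B cell and 0.02 for 3 erythroid markers. Of these, 5 T and NK cell, 3 B cell, 1 cholangiocyte and 1 erythroid marker were below the 25th percentile of level. Of the cholangiocyte markers Sox9, a transcription factor gene, had 0.41 ± 0.11 without overlap between groups (limma adjusted p = 0.326). S100a9, Ly6g and Sox9 are named after their values were seen. The part of these cells in the Phlda1 difference was not tested.

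**Figure D5:**
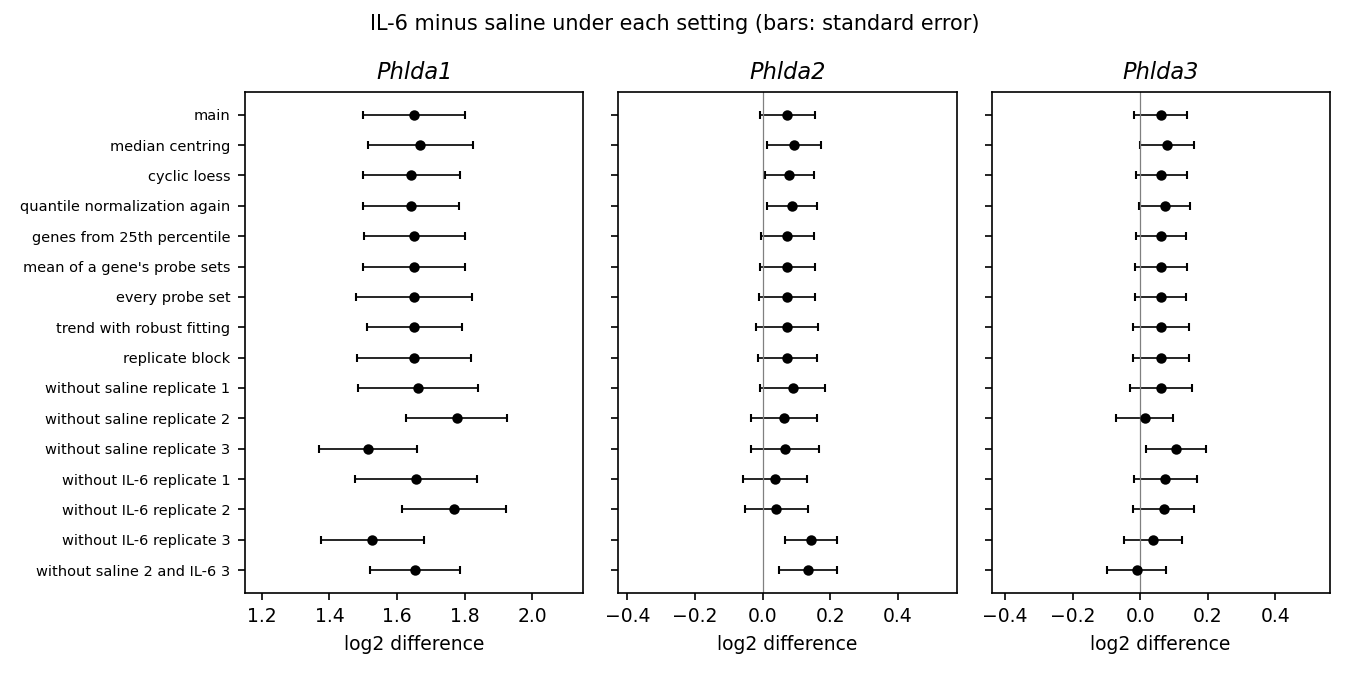
Log2 difference, IL-6 minus saline, of Phlda1, Phlda2 and Phlda3 with its standard error, as reported (main) and under each other setting. Each panel is 1 log2 unit wide. Phlda1 stays between 1.51 and 1.78, Phlda2 between 0.04 and 0.14, and Phlda3 between -0.01 and 0.11.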

How the data were processed

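Each deposited value is the log2 signal of 1 probe set on 1 array, which the authors obtained with RMA, per the submitters' processing notes (version, settings and genome build not given in the sources used here). RMA corrects background, quantile-normalizes arrays and summarises probes, which can compress large changes. RNA was biotin-labelled and hybridised to 1-colour Affymetrix arrays, per the labels. Of 35556 probe sets, 21789 had exactly 1 gene symbol in the platform annotation. For genes with several, the probe set with the highest mean was kept, giving 19938 genes. All 3 members matched a gene table on GRCm38.p6, used for names and gene order.

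IL-6 and saline were compared with limma 3.58.1 (lmFit and eBayes, R 4.3.3), two-sided, without covariates, with Benjamini-Hochberg adjustment over all genes and a threshold of 0.05. The number of arrays limits precision, and the median standard error was 0.089. The labels do not say outright that each array is a separate mouse, so the p-values reflect only how far these samples vary, which may be technical.

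The members, the 7 gene lists and 9 marker lists were chosen with earlier results of these data known. Named genes were the members, Socs3, up to 4 genes per list (called genes by size, then smallest p) and the 5 nearest to Phlda1. Flanking genes were added later. Of 131 listed genes, 13 had no probe set with exactly 1 symbol in the platform annotation used here (Cdkn1a and Hspa1b share theirs with another symbol) and were not analysed here. Alternatives were other normalizations, a filter at the 25th percentile, other probe set rules, a variance trend, a replicate block and leaving out arrays. Figures used matplotlib 3.10.9 in Python 3.11.15.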

Additional observations from a re-analysis of the deposited data

How the results depend on the processing

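Phlda1 kept its direction under all 15 alternatives, moving by less than 1 SD of its replicates (1.51 to 1.78). Phlda2 stayed positive and not called in all 15 (0.04 to 0.14, limma adjusted p from 0.749 to 0.995). Phlda3 was not called in any of the 15 (limma adjusted p from 0.912 to 0.997). It ran from 0.013 to 0.11 with single arrays left out and was -0.010 without saline replicate 2 and IL-6 replicate 3, an alternative added after seeing the data. In place of 84 called genes (77 higher, 7 lower), leaving out single arrays gave 49 to 71, and leaving out that pair gave 33. Testing every probe set gave 17, which are probe sets and not genes. In place of 4 called genes in the lists, leaving out single arrays gave 1 to 3, leaving out the pair gave 1, and testing every probe set gave 1. Other settings raised the count, to 103 with a variance trend and robust fitting and to 96 with median centring or the 25th percentile filter. With the trend 5 list genes were called, and the one added was Xbp1. Testing every probe set changed the number of tests (35556 in place of 19938) and the prior degrees of freedom (2.56 in place of 5.28), and their shares in the lower count were not tested.

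With the replicate number as a block, 65 genes were called, 3 of them in the lists, and Phlda2 and Phlda3 had limma adjusted p of 0.988 and 0.989. Deviations of same-numbered arrays correlated at 0.08, -0.12 and -0.09, and 1 of 3 saline arrays correlated best with its own number. With so few arrays these values cannot show whether same-numbered arrays were paired in the experiment. Scanner backgrounds were not used here. The standard errors of Phlda2 (0.082) and Phlda3 (0.077) were below the median over all genes (0.089).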
